A study of Mus musculus with 4 samples.

Results

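The members described here are the H4K16ac islands that start before position 10000000 on chromosomes 1 to 19, that is, the islands nearest to the centromeric ends of the mouse autosomes. They were chosen by position alone, from the start coordinate of each island in both deposited lists. There were 2823 of them among 54604 islands: 1475 of 28377 in the knockout list and 1348 of 26227 in the wild-type list. The remaining 26760 and 24753 autosomal islands served as the comparison.

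An island is a stretch of genome in which reads from chromatin pulled down with an antibody against H4K16ac outnumbered those from untreated input chromatin. The study asked how the loss of Sirt1 changes this mark in liver. Livers were from 3-month-old mice of a mixed 129/FVB/Black Swiss background, with 1 mouse labelled SIRT1 KO (MT below) and 1 labelled wild type (WT), each with a ChIP and an input library. The sample titles tie the ChIP and input library of a genotype to the same animal, while the study's text speaks of more pairs of mice for this assay, which are not analysed here. The study's methods describe the mutant mice as males, and the labels state that the mice were killed in the morning and the livers frozen. With 1 library per genotype and assay there was no replicate, so no difference between MT and WT could be tested, and genotype cannot be told apart from the individual mouse or library. All intervals below are 95% and cover counting error only.

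Mouse chromosomes are telocentric, so the centromere lies at the chromosome's end and the numbering of bases starts there. The centromere is embedded in long arrays of satellite repeats that are packed as constitutive heterochromatin, and genome assemblies leave these arrays as a gap before the first unique sequence. H4K16ac is an acetyl mark that loosens the packing of nucleosomes and is low in heterochromatin. Sirt1 is a deacetylase that removes it, among other targets, and is known for its role in keeping heterochromatin silent.

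Coordinates are those of mm8, the build named in the submitters' processing notes. No annotation of that build was used here, so islands are given by position and not by gene. Island reads summed to 2916128 ChIP and 1347113 input reads in MT and to 2264125 and 984817 in WT. Judged by input reads per covered kb in the 14719 regions that held islands of both lists, the MT input library was 1.09 times as deep as that of WT, and the MT ChIP library was 1.047 times as deep.

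The density of islands near the centromeric ends, set against the rest, depended on the stretch measured. From the first island of each chromosome up to 10 Mb, MT had 12.1 islands per Mb against 11.8 in the rest of the autosomes, a ratio of 1.02 (0.970 to 1.08). In WT the values were 11.2 and 10.9, again a ratio of 1.02 (0.968 to 1.08). Both intervals include equal density. Counted from 3 Mb on every chromosome, the densities were 11.1 in MT and 10.1 in WT, and the ratios fell to 0.939 (0.891 to 0.990) and 0.927 (0.877 to 0.979). With the whole first 10 Mb as the length, its island-free start included, they were 0.657 and 0.649. For islands that start before 5 Mb, measured from the first island, they were 1.597 (1.46 to 1.74) and 1.59 (1.45 to 1.74). Chromosomes 3 and 14, whose first islands start past 5 Mb, added no length to that span. Counted over all 19 chromosomes, MT had 13.6 islands per Mb from 3 to 4 Mb and 14.9 from 4 to 5 Mb. WT had 12.1 and 12.8. From the first island up to 10 Mb, the islands covered 3.66% of the stretch in MT and 3.02% in WT, against 3.65% and 2.91% in the rest. From 3 Mb they covered 3.36% and 2.74%.

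The opposite, telomeric ends were richer. The 7 Mb up to the last island of each autosome held 2084 MT and 1987 WT islands, or 15.7 and 14.9 per Mb. That stretch ends at an island, whereas the centromeric one starts at a fixed 3 Mb. On 13 of 19 chromosomes the centromeric end held fewer islands than the telomeric end in MT, as it did on 13 of 19 in WT. Set against windows of 7 Mb further along, the centromeric ends lay within the range. The 19 windows from 3 to 10 Mb held a median of 75 MT and 62 WT islands, and the 314 windows further along held a median of 77 and 71.5, with quartiles of 48 and 109 in MT and of 44 and 100 in WT.

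**Figure D1:**
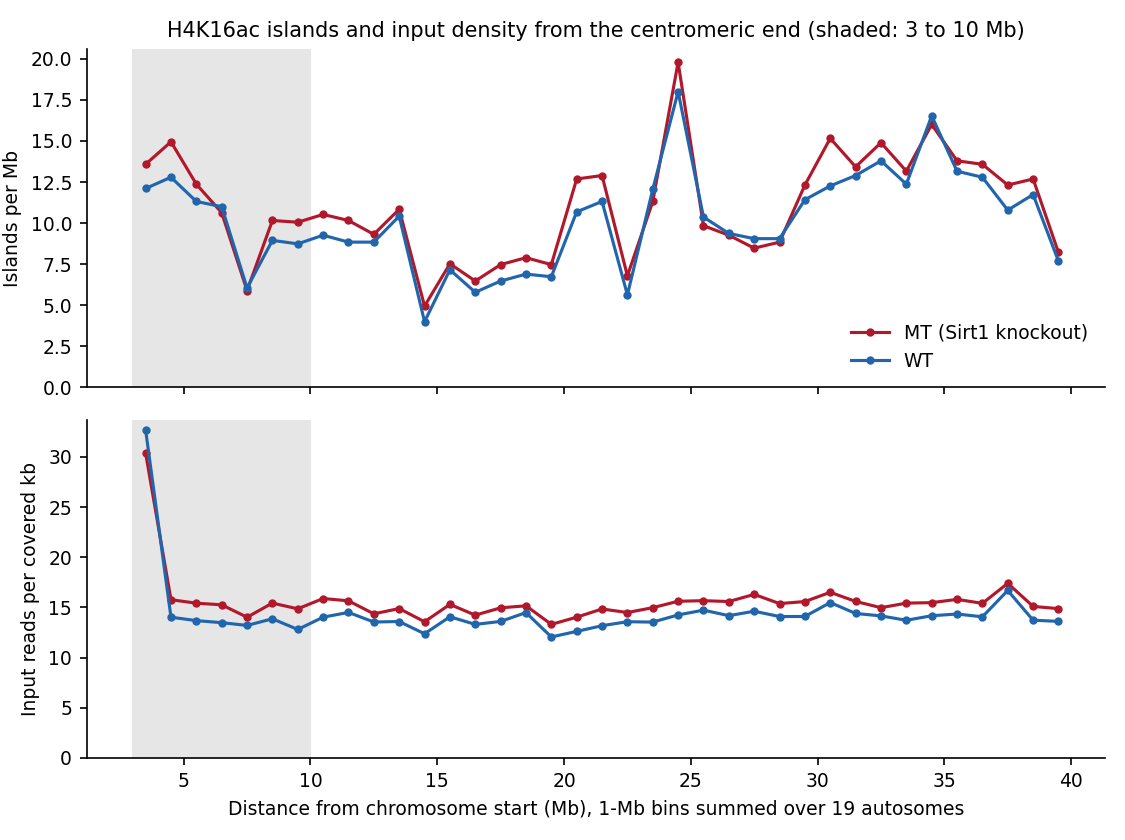
Upper panel: islands per Mb of each list (MT red, WT blue) in 1-Mb bins by distance from the chromosome start, summed over 19 autosomes. Lower panel: input reads per covered kb of the same islands. Between 3 and 10 Mb (shaded) both lists were lowest at 7 to 8 Mb, and the input density stood apart only in the first bin, at 30.4 in MT and 32.7 in WT.

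Along the first megabases the 2 lists ran in parallel. Between 3 and 4 Mb there were 258 MT and 230 WT islands over the 19 chromosomes, and between 7 and 8 Mb, the lowest bin, there were 112 and 115. Density in MT was highest from 4 to 5 Mb, at 14.9 islands per Mb, fell to 5.89 in that lowest bin and was back at 10.1 from 9 to 10 Mb. The WT values at these places were 12.8, 6.05 and 8.74. Swings of this size were also seen further along: the 30 bins from 10 to 40 Mb ranged from 4.95 to 19.8 islands per Mb (MT) and between 4.00 and 18.0 (WT).

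The first island of a chromosome began a median of 279.6 kb past 3 Mb in MT and 319 kb in WT. The nearest was on chromosome 11, 25.4 kb (MT) and 25.2 kb (WT) past 3 Mb, and the farthest on chromosome 14, at 3609 kb and 3611 kb. On 13 of 19 chromosomes the first MT island lay within 500 kb of 3 Mb, and the WT list had the same number. The first islands of the lists overlapped on 9 chromosomes. The MT one started first on 15, the WT one on 3, and both began at the same base on chromosome 17.

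Chromosome 1 showed the widest separation: its first MT island, chr1:3504601-3506800, lay 504.6 kb past 3 Mb and its first WT island, chr1:4773801-4776400, 1774 kb past it. The folds of the first islands lay between 1.04 and 2.65 in MT, and in WT between 1.06 and 4.34. The highest was a WT island on chromosome 2, chr2:3234201-3235600, with 43 ChIP reads.

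The first island of chromosome 11 stood apart from every other member. In MT it ran over chr11:3025401-3100200 with 15608 ChIP and 14275 input reads, a fold over scaled input of 1.04. In WT it ran over chr11:3025201-3100200 with 15763 ChIP and 13469 input reads and a fold of 1.06. It was the longest island of both lists near the centromeric ends, at 74800 and 75000 bp, and had the most ChIP reads. Its input density was 12.7 and 13.2 times the median of its list, and no other member exceeded 5 times. The high ChIP count of this island was thus matched by its input.

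The next highest input density was also in a first island, chr17:3037001-3039600, which had the same borders in both lists. In MT 271 ChIP and 188 input reads fell in it, a fold of 1.36 at 4.82 times the median input density. In WT it held 267 and 175 reads, a fold of 1.39 at 4.96 times. All other first islands lay between 0.474 and 1.52 times the median, so among first islands high input was seen at these 2 places.

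The chromosome 11 island decided the summed enrichment. Summed over all members, ChIP over scaled input was 1.86 (1.85 to 1.88) in MT against 2.06 in the rest, and 1.88 (1.86 to 1.90) in WT against 2.10. Without that single island the values were 2.04 (2.02 to 2.06) and 2.11 (2.09 to 2.13), close to the rest in either list. The input density of covered sequence, in reads per kb, moved likewise, from 18.2 to 15.2 in MT (rest 15.3) and from 17.1 to 13.7 in WT (rest 13.96). In the bin from 3 to 4 Mb the summed enrichment of 1.49 in MT and 1.46 in WT became 2.04 and 2.09 without it.

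**Figure D2:**
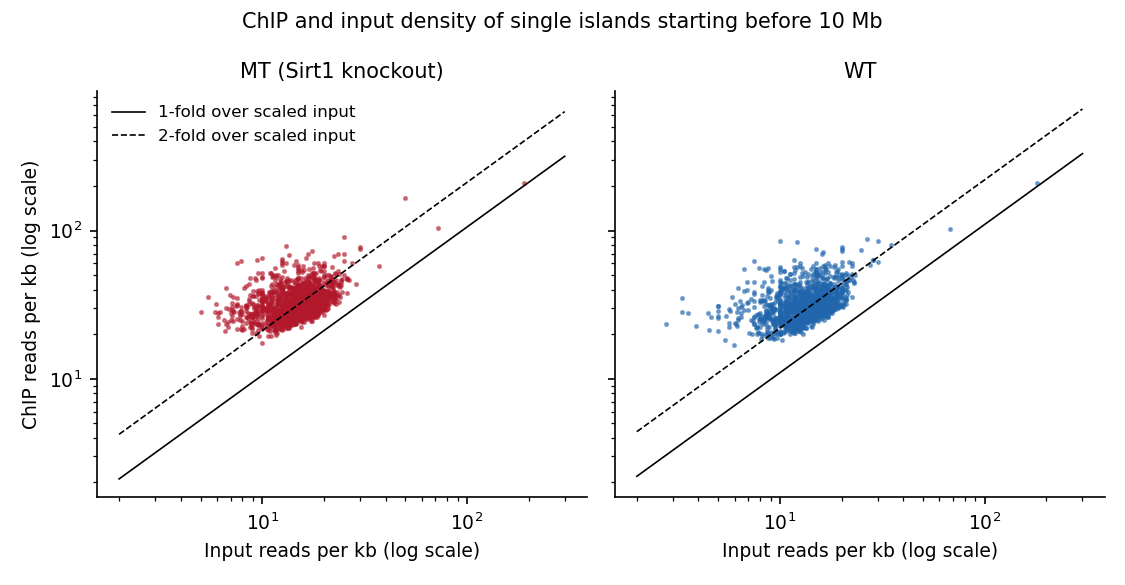
ChIP reads per kb (vertical, log scale) against input reads per kb (horizontal, log scale) for each island starting before 10 Mb, MT left and WT right; the solid line marks equality with scaled input and the dashed line 2-fold. The point at the far upper right of each panel is the first island of chromosome 11, which sits on the 1-fold line at 1.04 in MT and 1.06 in WT, and the next point to its left on that side of the cloud is the first island of chromosome 17.

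The typical island near the centromeric ends resembled the typical island elsewhere. The median length was 2400 bp in MT and 2200 bp in WT, the same as in the rest. The median fold was 1.99 (1.97 to 2.03) in MT against 2.02 in the rest, and 2.07 (2.03 to 2.11) in WT against 2.08. Islands of at least 10 kb numbered 25 in MT (1.69%, rest 1.92%) and 15 in WT (1.11%, rest 1.07%).

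In the tails the members lay near the rest, and no share had an interval that left out the rest in both lists. For a fold below 1.5 and for the false discovery rate it did so in MT only. For a fold of 4 it did so in WT only. In MT, 91 islands (6.17%, 5.05 to 7.51) had a fold below 1.5, against 4.85% (4.60 to 5.11) in the rest, and in WT 53 (3.93%, 3.02 to 5.11) had, against 3.35% (3.14 to 3.58). A false discovery rate below 1e-20 was reached by 170 MT islands (11.5%, 9.99 to 13.3), against 13.7% (13.3 to 14.1), and by 129 WT islands (9.57%, 8.11 to 11.3), against 10.4% (10.1 to 10.8). A fold of 4 was reached by 70 WT islands (5.19%, 4.13 to 6.51), against 4.00% (3.77 to 4.26), and by 48 MT islands (3.25%, 2.46 to 4.29), against 3.18% (2.97 to 3.39). These intervals treat islands as independent, which neighbouring islands are not.

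The members with the most ChIP reads after the chromosome 11 island were broad. On chromosome 6 the MT island chr6:6148801-6169400 had 855 ChIP and 278 input reads (fold 2.91), and its WT counterpart chr6:6149601-6171200 had 771 and 237 (fold 2.96). On chromosome 4 the MT island chr4:6839601-6859800 had 781 and 221 reads (fold 3.35), and the WT island chr4:6833801-6852600 had 693 and 182 (fold 3.46). Reads and folds of these broad islands were thus close in both mice, while on chromosome 4 the borders were shifted and the region held 3 islands in each list.

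In other places a single island of a list faced several of the other. The MT island chr15:3171601-3188000, with 751 ChIP reads and a fold of 3.31, faced 2 WT islands with 479 reads together, and chr11:4085601-4101000, with 604 ChIP reads and a fold of 1.97, faced 3. Conversely, the WT islands chr14:6739401-6756400 (620 ChIP reads, fold 1.89) and chr14:6724001-6738600 (592 reads, fold 2.37) each faced 2 MT islands. Island counts therefore also reflect where a broad domain was broken into pieces.

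The highest folds were in islands of 1200 to 3800 bp. Among MT islands with at least 50 ChIP reads the leader was chr19:4755801-4757200, with 87 ChIP and 11 input reads and a fold of 7.49. It was followed by chr11:5418401-5422200, with 240 and 36 reads and a fold of 6.31, which held the most reads and was the longest of these islands. The others were chr12:7975401-7977600 (fold 6.15), chr19:6045001-6047000 (5.72) and chr4:6719201-6721000 (5.36), the last of which had no WT island. All 5 had between 9 and 36 input reads, so their folds rest on few input reads.

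In WT the highest fold was at chr4:6872201-6874000, with 63 ChIP and 6 input reads and a fold of 9.54, and MT had 62 and 13 reads in its island there. The next were chr12:8666801-8668000 (fold 7.498), an island on chromosome 18 with 78 ChIP and 11 input reads (6.44) and chr11:6525601-6527000 (6.31). The fifth, chr11:3101801-3103400, had 72 ChIP and 11 input reads and a fold of 5.95. It began just past the high-input island of chromosome 11, and its own input density was 0.507 times the list median.

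Members were spread unevenly over chromosomes, and in the same way in both lists. Chromosome 19 held the most, 208 in MT and 171 in WT, followed by chromosome 11 with 139 and 123 and chromosome 18 with 135 and 118. Together these 3 held 32.7% of MT and 30.6% of WT members. Chromosomes 1, 3 and 8 held the fewest, 75 in MT and 71 in WT in all. Across the 19 chromosomes the counts of the lists had a Spearman rho of 0.96, whereas the count near the centromeric end and the density of the rest of the chromosome had a rho of 0.48 in MT and 0.46 in WT. Both are descriptions over 19 chromosomes of 1 mouse per genotype.

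**Figure D3:**
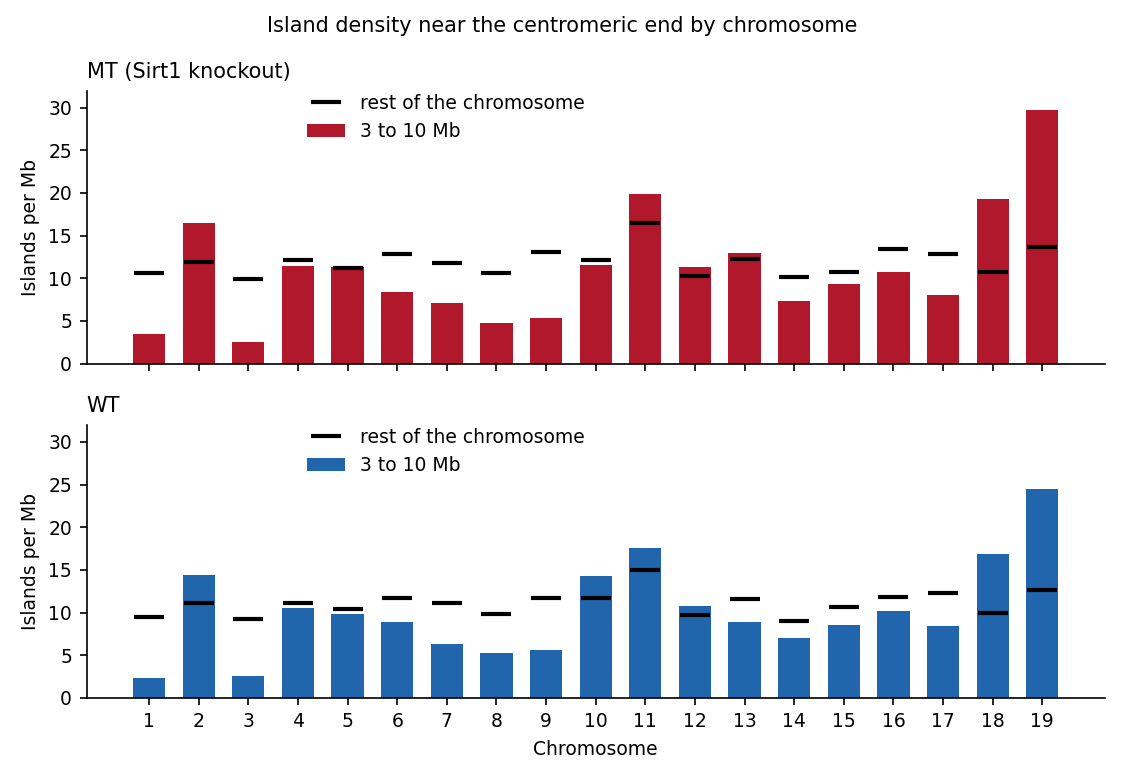
Islands per Mb from 3 to 10 Mb (bars) and in the rest of the same chromosome (black dashes) for each autosome, MT above and WT below. Bars fall short of the dash on 12 of 19 chromosomes in MT and 13 in WT, and chromosome 19 stands far above its own rest in both.

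Counted from 3 Mb, the centromeric end was sparser than the rest of its chromosome on 12 of 19 chromosomes in MT and 13 in WT, and counted from the first island on 10 in each. Chromosome 19 went furthest the other way. With lengths from the first island, leaving it out took the ratio of density to the rest from 1.02 to 0.933 (0.882 to 0.988) in MT. In WT the ratio went from 1.02 to 0.949 (0.895 to 1.007), an interval that includes equal density.

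Members were clustered. Of the 133 bins of 1 Mb between 3 and 10 Mb, 21 held no MT island, 22 no WT island and 19 neither. The fullest bin of MT, on chromosome 19 from 4 to 5 Mb, held 59 MT and 39 WT islands, that of WT, on chromosome 10 from 5 to 6 Mb, held 29 and 41, and the bin on chromosome 16 from 4 to 5 Mb held 45 and 38. The longest stretch free of islands in MT was chr8:5108401-8865200, 3757 kb long, and on chromosome 14 no island of either list began before 6608601. The stretches that were empty in one mouse were thus largely empty in the other.

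MT had 1.09 (1.02 to 1.18) times as many members as WT, and 1.08 times as many islands in the rest of the autosomes. The covered length was 1.23 (1.14 to 1.32) times that of WT, against 1.26 in the rest. The excess of MT near the centromeric ends was therefore of similar size to that elsewhere. The MT libraries were the deeper ones, at 1.09 (input) and 1.047 (ChIP) times WT. The part of depth in the excess was not tested. The excess in number lay among islands with a fold below 2: at a fold of at least 2, the ratio was 0.997 near the centromeric ends and 0.992 in the rest.

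By chromosome the counts were small, 16 to 208 a list, which widens their ratios. MT had more members on 13 chromosomes, fewer on 5 and as many on 1, while in the rest it had more on all 19, with ratios from 1.01 to 1.15. Covered length was longer in MT on 18 of 19. Chromosomes 10 and 13 lay furthest apart among those with at least 50 members in each list. Chromosome 10 had 81 MT and 100 WT members, a ratio of 0.81 (0.597 to 1.10) against 1.04 in its rest, and chromosome 13 had 91 and 62, a ratio of 1.47 (1.051 to 2.06) against 1.06. On all 19 chromosomes the interval included the ratio of the chromosome's rest.

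Most members had a counterpart in the other list. In MT, 658 members (44.6%) overlapped no WT island, and among all autosomal MT islands the share was 43.5%. In WT, 524 members (38.9%) overlapped no MT island, against 35.7% of all autosomal WT islands. The MT share was near its background. The overlapping share in WT, 61.1% (58.5 to 63.7), was below the 64.5% (63.9 to 65.1) of the rest. Chromosome 10 carried most of that gap: without it the share was 63.7% (61.0 to 66.3). Without chromosome 19 the share was 58.9%, against 64.5%. For starts below 5 Mb the order turned, with 70.4% (66.1 to 74.3) against 64.2% in the rest.

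Members seen in a single list were the weaker ones, and the same held in the rest of the autosomes. Their median length was 2000 bp in MT and 1800 bp in WT, with 57 and 49 ChIP reads and folds of 1.89 and 1.93. Members that overlapped the other list had medians of 2800 and 2600 bp, 96 and 80 reads and folds of 2.12 and 2.17. In the rest, single-list islands had medians of 2000 and 1800 bp, 57 and 49 reads and folds of 1.89 and 1.97. Overlapping ones there had 3000 and 2400 bp, 97 and 78 reads and folds of 2.14 and 2.16. Since the lists hold no reads outside islands, the signal of the other mouse at a place without an island is not analysed here.

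The strongest single-list members by p-value had ChIP reads well above the median of single-list members. In MT they were chr15:3396001-3401800 (198 ChIP and 78 input reads, fold 2.40), chr2:5551401-5559200 (269 and 127, fold 2.01) and chr1:4791001-4794400 (85 and 22, fold 3.66). In WT they were chr10:7779401-7783800 (156 and 43, fold 3.30), chr2:7176401-7179000 (74 and 13, fold 5.17) and an island on chromosome 18 (98 and 25, fold 3.56). An island of chromosome 2 appears in both sets, and chromosome 10 in that of WT.

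**Figure D4:**
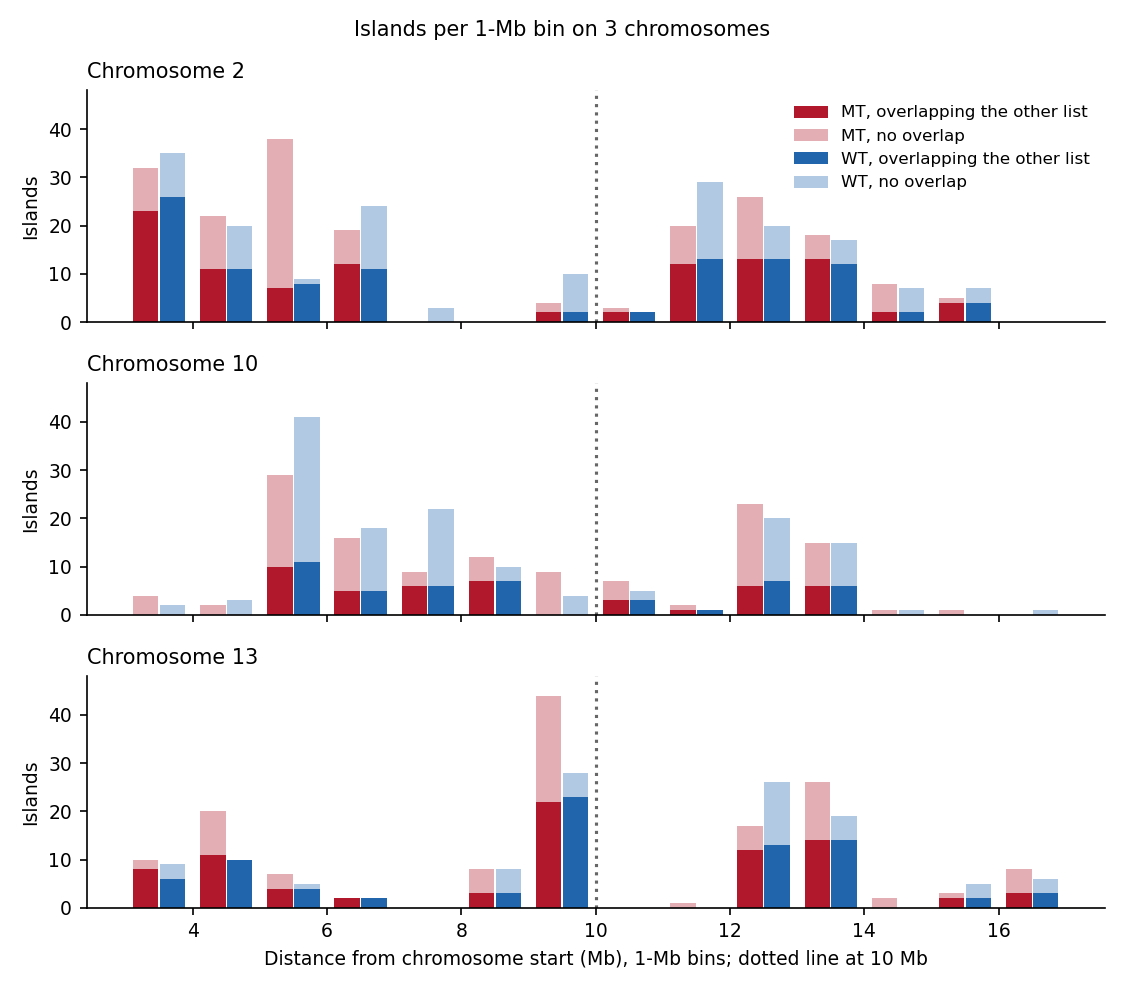
Islands per 1-Mb bin by distance from the chromosome start on chromosomes 2, 10 and 13, MT red and WT blue; dark parts overlap an island of the other list and pale parts do not, and the dotted line marks 10 Mb. On chromosome 2 from 5 to 6 Mb MT has 38 islands and WT 9, and on chromosome 10 the pale parts dominate in both lists.

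Chromosome 2 held the bin with the largest MT excess. Between 5 and 6 Mb there were 38 MT and 9 WT islands, covering 113.6 and 26.4 kb. Of the 38, 31 overlapped no WT island, while 8 of the 9 in WT had an MT counterpart. This bin was chosen after its values were seen. Of the 1099 autosomal 1-Mb bins with at least 20 islands of both lists together, no other had as large an excess in MT, 29 islands, or as high a ratio, and the lowest difference, an excess of WT, was 19 islands.

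The MT islands of this bin were ordinary in strength. Their median length was 2400 bp and their median fold 1.91, with a range of 1.31 to 4.04. Together they held 3700 ChIP and 1847 input reads, or 16.3 input reads per kb, and 25 of the 38 had at least 50 ChIP reads. The 9 WT islands held 944 and 361 reads, with a median fold of 2.13. The neighbouring bins did not share the excess: from 4 to 5 Mb there were 22 MT and 20 WT islands, and from 6 to 7 Mb 19 and 24.

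Chromosome 13 held more islands in MT than in WT mainly between 9 and 10 Mb, with 44 against 28, and between 4 and 5 Mb, with 20 against 10. Of the 1099 bins, 9 had a larger MT excess than the first of these, and 93 had a higher ratio. On chromosome 19 the bin from 4 to 5 Mb had 20 more islands in MT, an excess passed by 2 bins, but its ratio of 59 to 39 was passed by 113.

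Chromosome 10 differed in which places held islands more than in how many. Near its centromeric end 28 of 81 MT islands, 34.6% (25.1 to 45.4), overlapped a WT island, against 56.6% (54.0 to 59.2) of MT members on the other chromosomes. In WT 29 of 100 did, 29.0% (21.0 to 38.5), against 63.7% (61.0 to 66.3). Further than 10 Mb along chromosome 10 the shares were 59.0% and 64.5%. The chromosome was singled out after these values were seen.

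Among 7-Mb windows from 10 Mb on with at least 50 islands, 225 in MT and 217 in WT, none had a lower overlap share than this one, the lowest being 37.3% in MT and 41.9% in WT. The adjoining window of chromosome 10, from 10 to 17 Mb, was too sparse for that count, with 49 MT and 43 WT islands, and overlapped at 32.7% (21.2 to 46.6) and 39.5% (26.4 to 54.4). From 17 Mb to the end of chromosome 10 the shares were 60.0% and 65.3%. The low overlap was thus not bounded by the 10 Mb limit.

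A looser match left it in place. Counting an island of the other list within 1000 bp as a match changed neither share on chromosome 10, and within 5000 bp they rose to 53.1% and 41.0%, against 72.5% and 78.0% of members on the other chromosomes. The islands there had median ChIP reads of 66 in MT (other chromosomes 75) and 52 in WT (67). Their median folds were 1.89 (2.001) and 2.07 (2.07). The part of island strength in the low overlap was not tested. The bin from 5 to 6 Mb held 29 MT and 41 WT islands, of which 10 and 11 overlapped. Between 7 and 8 Mb there were 9 MT and 22 WT islands, a WT excess of 13 that 4 of the 1099 bins passed.

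On chromosome 3, which had 18 members in each list, 22.2% of MT and 27.8% of WT members overlapped, but these were 4 and 5 islands. The highest shares were 72.7% in MT, on chromosome 8, and 84.1% in WT, on chromosome 7.

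Where both mice had islands, the comparison of their signal rested on the scaling for depth. The 743 regions near the centromeric ends that held islands of both lists had median ChIP reads of 102 in MT and 85 in WT. With depth taken from the input, the median log2 ratio of ChIP reads per covered kb, MT over WT, was -0.0056 (-0.034 to 0.010), and in the 13898 regions of the rest it was -0.011. When the lists were instead given the same ChIP total it was -0.31 (-0.33 to -0.29), and in the rest -0.31, so under either scaling the members lay close to the rest. With depth from the input, MT was higher in 361 regions, 48.6% (45.0 to 52.2), against 48.5% in the rest. The quartiles of the ratios were -0.22 and 0.16, with an SD of 0.33 across regions, where counting alone at the median reads gives an SD of 0.21.

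**Figure D5:**
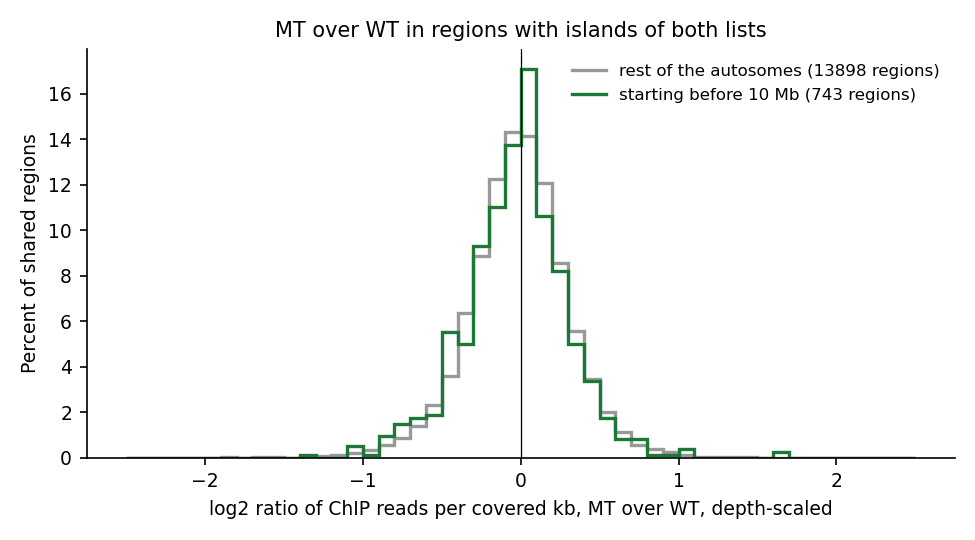
Percent of regions with islands of both lists (vertical) by log2 ratio of depth-scaled ChIP reads per covered kb, MT over WT (horizontal, steps of 0.1), for 743 regions starting before 10 Mb (green) and 13898 in the rest of the autosomes (grey). Both outlines are centred near 0 with SDs of 0.33 and 0.32.

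Few regions were far from equality. The ratio was at least 1.5-fold in favour of MT in 20 regions (2.69%, 1.75 to 4.12), and the share over all shared autosomal regions was 2.90%. It was at least 1.5-fold in favour of WT in 38 (5.11%, 3.75 to 6.94), against 4.06%. Both intervals include the share over all regions. The chromosomes' medians ranged from -0.10 on chromosome 10 to 0.11 on chromosome 6, and 8 of 19 were above 0.

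The density ratio depends on how long the island was drawn in each list. In 628 regions the lists had 1 island each. MT had the longer one in 358 of them (57.0%, rest 55.3%) and WT in 203 (32.3%, rest 34.3%). Reads per region, without dividing by length, gave a median log2 ratio of 0.15, and 0.16 in the rest. The direction of the median change therefore rests on that choice, near the centromeric ends as elsewhere.

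The regions at the extremes moved with this choice as well. The largest ratio in favour of MT among regions with at least 50 ChIP reads in both was chr6:5168601-5172800, at a log2 of 1.04 (0.66 to 1.42). There MT had 96 ChIP and 19 input reads in an island of 1400 bp, and WT 134 and 51 in an island of 4200 bp. Per region the ratio was -0.55, in favour of WT. The next were chr4:3505201-3507600 (0.80), a region on chromosome 18 (0.75), chr19:4755801-4758000 (0.74) and chr2:6045401-6047800 (0.71). Per region these 4 stayed in favour of MT, at 0.026, 0.16, 0.092 and 0.19. In all 5 the MT island was the shorter.

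The largest ratio in favour of WT was chr2:3429401-3431400, at -0.97 (-1.46 to -0.47), with 60 ChIP reads in 1600 bp in MT and 70 in 1000 bp in WT, and per region it kept its sign at -0.29. The next were chr7:4104001-4110200 (-0.83), chr12:8943801-8949000 (-0.80), chr19:5609201-5614200 (-0.75) and chr11:3305401-3310800 (-0.74). In these 4 the MT island was longer, and per region the ratios were 0.80, 0.90, 0.31 and 0.85, all in favour of MT. Only chr2:3429401-3431400 of these 5 was lower in MT by both measures, and its counts are small.

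The islands just inside and just outside the 10 Mb limit had similar values. The last MT member, on chromosome 18, had 75 ChIP reads and a fold of 2.15, and the first MT island past the limit, on the same chromosome, had 71 reads and a fold of 2.17. The last WT member, chr3:9999201-10001000, had 57 reads and a fold of 1.92. The first WT island past the limit lay on another chromosome, chr19:10009001-10010800, and had 73 and 1.75.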

How the data were processed

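ChIP and input libraries of liver chromatin were sequenced, 1 mouse per genotype. According to the submitters' processing notes, the authors used Bowtie 0.12.7, SICER 1.03 and build mm8. The titles of the deposited lists state removed duplicates, windows of 200 bp, gaps of up to 400 bp and a false discovery rate of 0.001. For each island the authors deposited ChIP and input read counts, a p-value, a fold (ratio of ChIP to depth-scaled input) and a false discovery rate. Reads outside islands were not used here.

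The library ratio was recovered from counts and fold. Overlapping islands (at least 1 bp) of both lists were merged into regions. MT over WT depth was taken from input reads per covered kb in all shared regions. Ratios of counts carry exact conditional (Clopper-Pearson) intervals, shares Wilson intervals, medians order-statistic intervals and read ratios log-normal ones. The interval of the covered-length ratio takes its relative width from the island counts. No test between genotypes was made, since each has 1 library per assay. All p-values are the authors' and served only to rank or filter islands.

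Islands named singly were, per list, the 5 with the most ChIP reads, the 5 with the highest fold (at least 50 ChIP reads), the longest, those above 5 times the median input density, the first of each chromosome, the 3 strongest without overlap, and the 5 shared regions furthest each way. The second high-input island, the bins and chromosomes 2, 10 and 13 were chosen after seeing values. Members and comparisons were chosen with earlier results of these data known. The measures were tested on simulated data. Python 3.11.15, pandas 2.3.3 and SciPy 1.17.1 were used.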

Additional observations from a re-analysis of the deposited data

How the results depend on the processing

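The intervals cover counting error only, and the lists hold no reads outside islands, so a weak signal below the authors' threshold cannot be seen. No paired analysis was possible because each genotype had 1 mouse. Values below are ratios of members to the rest, MT then WT, against main values of 1.02 and 1.02 (density), 1.004 and 1.04 (covered share), 0.904 and 0.895 (ChIP over scaled input) and 1.19 and 1.22 (input per kb). The cause was not tested except where the construction shows it. From 3 Mb, density was 0.939 and 0.927 and covered share 0.922 and 0.941; as medians over chromosomes 0.958 and 0.943, and 0.916 and 0.979; as medians from 3 Mb 0.861 and 0.803, and 0.872 and 0.928. With the whole first 10 Mb as length, which holds no island before 3 Mb, they were 0.657 and 0.649, and 0.645 and 0.659. Starts below 5 Mb were measured from the first island, so over a short span to which chromosomes 3 and 14 added no length. They gave density 1.597 and 1.59, covered share 1.67 and 1.71, ChIP over input 0.819 and 0.793 and input 1.51 and 1.67. Their overlap was 60.5% and 70.4%, against 56.5% and 64.2% in the rest. Starts below 20 Mb gave 0.804 and 0.791, 0.781 and 0.793, 0.948 and 0.942, and 1.08 and 1.10. Without chromosome 19 these 4 were 0.933 and 0.949, 0.909 and 0.956, 0.890 and 0.880, and 1.22 and 1.25.

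ChIP over input and input per kb turned on the first island of chromosome 11. Without it they were 0.990 and 1.003, and 0.9998 and 0.979. Without all islands of high input, they were 0.989 and 1.002, and 1.001 and 0.981. As medians of single islands they were 0.988 and 0.994, and 0.984 and 0.982. A false discovery rate of at most 1e-05 removed that island from MT and not from WT and gave 0.995 and 0.853, and 0.993 and 1.32. At least 50 ChIP reads gave 0.896 and 0.883, and 1.21 and 1.26. A fold of at least 2 gave 1.02 and 1.02, and 0.970 and 0.970, with covered share 0.926 and 0.972 and, in WT, a median length ratio of 1.11.

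The MT over WT island number, 1.09, became 0.997 at a fold of at least 2 (rest 0.992) and 1.23 at 50 reads. The overlap share, 55.4% and 61.1%, was 50.4% and 51.1% at a fold of at least 2, 34.9% and 38.2% when 50% of both islands had to overlap and, in WT, 67.2% at 50 reads. The median log2 ratio, -0.0056, was 0.017 with 50% overlap (rest 0.016), 0.043 with depth from the members' own input (rest 0.037), -0.31 with equal ChIP totals and 0.15 per region (rest 0.16), and the rest was 0.00098 at 50 reads. The length from 3 Mb, and the settings without chromosome 10, chromosome 19 or the chromosome 11 island, were added after seeing the data.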
